A study of Mus musculus with 9 samples.

Results

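The 10 serotonin receptor genes Htr1a, Htr1b, Htr1f, Htr2a, Htr2c, Htr3a, Htr4, Htr5a, Htr6 and Htr7 were followed in RNA-seq of the mouse hippocampus. They were taken by symbol from the 47643 genes of the count table, and all 10 were among the 17113 genes that passed a filter on low counts. The 9 libraries formed 3 groups of 3. MRL/mpj mice were the untreated wild type controls, MRL/lpr mice were untreated carriers of the lpr mutation of Fas, a model of lupus, and MRL/lpr+MSC mice carried the same mutation and were treated with mesenchymal stem cells. All mice were at postnatal week 6. The labels give the strain of every sample as C57BL/6, whereas the study describes MRL/MpJ and MRL/MpJ-Faslpr mice. The study took the hippocampus of one hemisphere from mice perfused with PBS, so each library holds RNA of all hippocampal cell types and of whatever adjoining tissue came with the dissection, and fewer cells of a type cannot be told apart from less RNA per cell. The dose and time of the stem cell treatment are not given in the sources used here. MRL/lpr mice develop systemic autoimmunity throughout the body, so the mutation is not specific to the brain. The labels number the replicates without naming animals. The study describes its MRL/mpj and MRL/lpr libraries as individual mice, and gives no such statement for MRL/lpr+MSC, so p-values there measure the spread between libraries.

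Serotonin reaches the hippocampus in axons of raphe neurons and acts there on several receptor families. Receptors of the Htr1 and Htr5 families couple to Gi/o proteins, which lower cyclic AMP and open inward rectifier potassium channels. Htr2 receptors couple to Gq/11 and phospholipase C, whereas Htr4, Htr6 and Htr7 couple to Gs and raise cyclic AMP, and Htr3a is the core subunit of a ligand-gated cation channel. Htr2c is also abundant in the epithelium of the choroid plexus, which lies against the hippocampus.

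One doubt about the labels precedes every result. A table of normalized values that accompanies the study has 3 MRL/mpj columns and 3 MRL/lpr columns. For 1690 to 1763 genes, each column was divided by the first MRL/mpj column, and each library's counts by those of MRL/mpj replicate 1. These ratios were then compared gene by gene. For MRL/mpj columns 2 and 3, 1 library labelled MRL/mpj each differed by a single factor, with 100% of genes within 1%. The match of the first MRL/mpj column with MRL/mpj replicate 1 was fixed by the division and checks nothing. For each MRL/lpr column the library with that property, again with 100% of genes within 1%, was one labelled MRL/lpr+MSC, and at most 5.93% of genes matched in the same way for any library labelled MRL/lpr. Groups are used here as labelled. If the labels of the untreated and treated MRL/lpr groups were exchanged, the comparison of each with MRL/mpj would be exchanged too, while the comparison of both MRL/lpr groups together with MRL/mpj would stay as given. A lymphocyte gene gave the opposite picture, in keeping with the labels. Cd3e is among the genes the study lists for MRL/lpr against MRL/mpj. It was at 2.38, 1.60 and 0.719 CPM in the libraries labelled MRL/lpr and at no more than 0.221 CPM in the other 6. Which labels are right was not settled.

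Libraries held 19475804 to 26912031 counts, so that 3 counts corresponded to 0.105 to 0.163 in CPM, counts scaled to library size. Levels below are CPM after scaling by trimmed mean of M values (TMM), and levels are compared between genes only in the authors' deposited FPKM, which divide each library's counts by gene length. Fas itself, the gene that carries the lpr mutation, was at 1.999, 1.85 and 1.63 CPM in controls, 2.28, 1.34 and 1.78 in MRL/lpr and 0.986, 1.11 and 1.81 in MRL/lpr+MSC. The total Fas count did not separate the groups (MRL/lpr against MRL/mpj, log2 fold change −0.04, limma voom adjusted p = 0.935) and does not check the labels. Hippocampal markers were present in every library, with the 7 dentate granule genes summing to 372 to 976 CPM and the 6 CA1 genes to 286 to 896 CPM. The 14 choroid plexus genes summed to between 111 and 10160 CPM, highest in the MRL/lpr and MRL/lpr+MSC libraries numbered 2, which stood apart from the others in this respect.

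The stretches before the starts of Htr2c and Htr2a are shown because these are the 2 receptors whose difference in MRL/lpr passed the test. Htr2c lies on the X chromosome at 146962513 to 147197277, plus strand, and the 250 bases before its start are chrX:146962263-146962512. Htr2a lies on chromosome 14 at 74640840 to 74709494, plus strand, and 216 bases before its start, chr14:74640624-74640839, are given. Sequences are from RefSeq on GRCm38.p6, and capitals mark a GC box, here read on the opposite strand.
Htr2c: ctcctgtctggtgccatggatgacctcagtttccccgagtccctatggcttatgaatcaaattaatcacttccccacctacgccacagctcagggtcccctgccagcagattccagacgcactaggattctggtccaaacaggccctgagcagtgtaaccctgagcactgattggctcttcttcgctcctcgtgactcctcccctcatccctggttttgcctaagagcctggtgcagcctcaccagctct
Htr2a: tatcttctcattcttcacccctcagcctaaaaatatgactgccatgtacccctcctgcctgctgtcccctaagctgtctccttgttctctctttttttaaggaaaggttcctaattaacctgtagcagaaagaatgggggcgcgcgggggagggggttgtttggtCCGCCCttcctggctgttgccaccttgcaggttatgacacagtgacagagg
Windows of 250 bases before the start were searched on both strands for 4 short motifs, and each share is that of 32851 promoter windows of the same length. The NBRE, bound by nuclear receptors of the Nr4a family, was read as AAAGGTCA (1.34%). The cyclic AMP response element was read as TGACGTCA (1.55%). The GC box was read as GGGCGG (32.7%). The letters TATAAA stood for the binding site of TBP (12.4%). Of the 8 members for which a window was read, Htr1a and Htr2a held 1 GC box each and Htr6 held 3, and no window held any of the other motifs. GC content was 55.6% for the window of Htr2c and 52.8% for that of Htr2a, against a median of 52.4% over all windows. Htr3a and Htr4 were not searched.

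In control hippocampus Htr1a, the main inhibitory receptor of pyramidal neurons, was the most abundant of the 10 per length. Its FPKM in MRL/mpj was 10.95 ± 1.76 (SD, n = 3), above the range of every other member. Htr2a followed at 3.92 ± 0.866 FPKM and Htr4 at 2.84 ± 0.748, and their ranges overlapped. Htr5a (2.26 ± 0.396 FPKM), Htr7 (2.04 ± 0.0929), Htr6 (2.03 ± 0.124) and Htr1b (2.02 ± 0.355) could not be ordered, since the range of each overlapped that of the next. Htr3a (1.33 ± 0.274 FPKM), Htr1f (1.23 ± 0.246) and Htr2c (0.915 ± 0.241) were lowest, with ranges that overlapped in the same way. Htr2c thus had the lowest mean of the 10 in MRL/mpj, where it made up 2.67% to 3.77% of the summed FPKM of the members in single libraries.

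Htr2c stood second after Htr1a in MRL/lpr, at 7.76 ± 2.83 FPKM against 8.92 ± 3.72 for Htr1a, and their ranges overlapped. It was also second in MRL/lpr+MSC, at 6.27 ± 2.37 FPKM, where every Htr1a value (mean 11.8 FPKM) lay above it. Htr7 came next in both groups, at 4.78 ± 2.86 and 4.55 ± 1.54 FPKM. Htr3a and Htr1f had the lowest means in both, at 0.653 and 0.839 FPKM in MRL/lpr and 1.45 and 0.944 in MRL/lpr+MSC. The share of Htr2c in the members' summed FPKM was 16.8% to 32.8% in MRL/lpr libraries and 9.83% to 23.7% in MRL/lpr+MSC libraries, with no overlap with MRL/mpj in either.

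**Figure D1:**
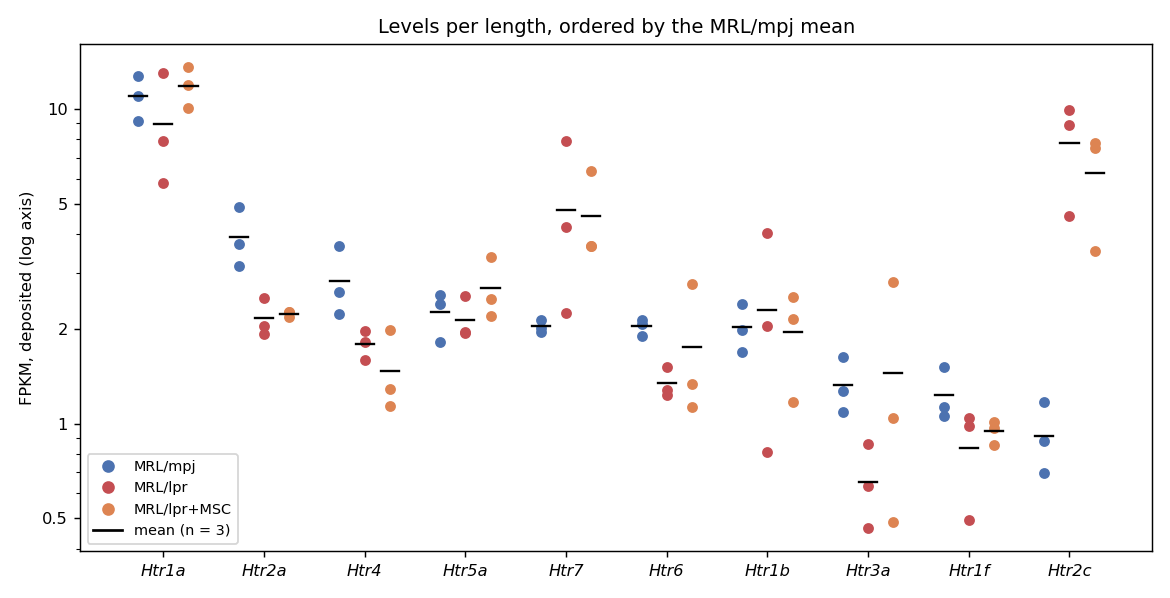
Deposited FPKM of the 10 receptors in each library (log axis), with points for libraries coloured by group and a line at each group mean (n = 3). Htr1a is highest in MRL/mpj at a mean of 10.95 FPKM and Htr2c lowest at 0.915, whereas Htr2c is second in both mutant groups.

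The first comparison set receptor transcripts of untreated MRL/lpr mice against those of MRL/mpj mice. Differences are between groups and are not assigned to the mutation. A gene was called differentially expressed at a Benjamini-Hochberg adjusted p under 0.05 and a change of at least 1.5-fold, tested by limma voom over all 17113 genes. Of the 10 receptors, 1 rose (Htr2c), 1 fell (Htr2a) and 8 did not pass. Over all genes 5.58% were called, 3.32% higher and 2.26% lower. The median log2 fold change of the 10 was −0.46, against 0.02 over all genes tested. Of the 10, 2 were positive, against 53.2% of all genes tested. CPM ranges of the groups did not overlap for 7 of the 10 (Htr2c and Htr7 higher; Htr1f, Htr2a, Htr3a, Htr4 and Htr6 lower), compared with 37.8% of all genes tested. The study listed Htr2c, Htr2a, Htr7 and the related Htr5b among genes it picked from these libraries, so their directions here are not independent evidence.

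Comparing MRL/lpr+MSC with MRL/mpj, 1 of the 10 rose (Htr2c) and none fell, against 2.54% of all genes called, 1.28% higher and 1.26% lower. The median log2 fold change of the 10 was −0.17, against 0.01 over all genes. Ranges did not overlap for 5 of the 10 (Htr2c and Htr7 higher; Htr1f, Htr2a and Htr4 lower), compared with 29.1% of all genes. Both comparisons use the same 3 MRL/mpj libraries. With both MRL/lpr groups set together against MRL/mpj, 1 of the 10 rose (Htr2c) and 2 fell (Htr2a and Htr4), against 4.87% of all genes called, 2.65% higher and 2.22% lower.

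**Figure D2:**
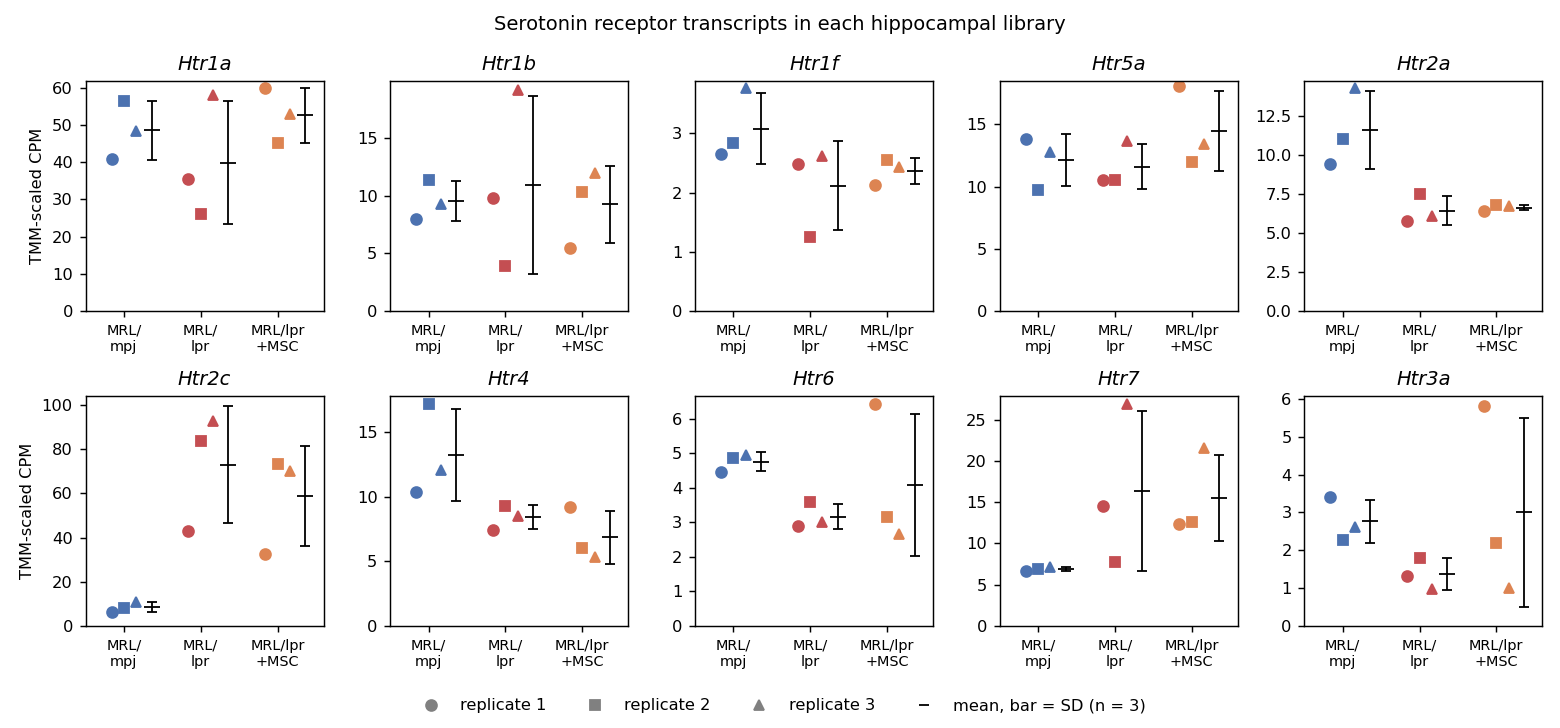
TMM-scaled CPM of each receptor in each library, in 1 panel per gene with its own axis from 0, coloured by group, with replicate number as symbol and the group mean beside it (bar, SD, n = 3). Htr2c is between 6.50 and 10.8 CPM in MRL/mpj and between 32.7 and 92.5 CPM in the 6 mutant libraries.

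**Figure D3:**
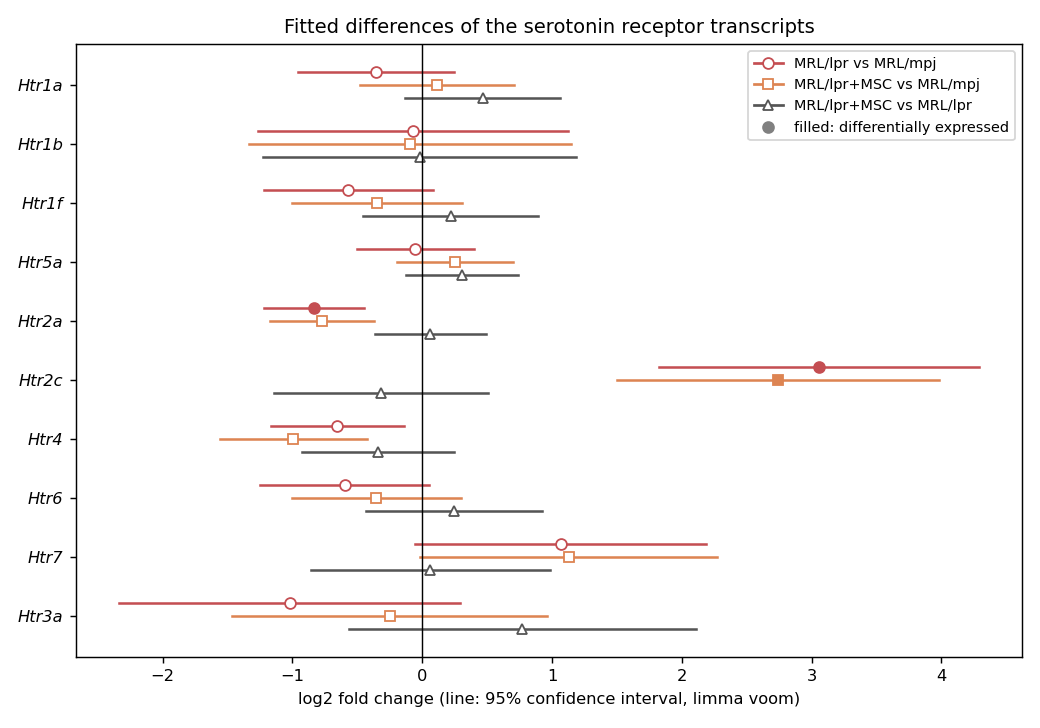
log2 fold change of each receptor with its 95% confidence interval from limma voom for the 3 pairwise comparisons. Filled symbols mark differentially expressed genes, which are Htr2c in both comparisons with MRL/mpj and Htr2a in MRL/lpr against MRL/mpj.

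Among the Gq/11-coupled receptors the 2 members differed in opposite directions. Htr2c, which excites neurons through phospholipase C and whose transcript is edited in brain, was at 6.50, 8.22 and 10.8 CPM in MRL/mpj. It was at 42.8, 83.5 and 92.5 CPM in MRL/lpr, and at 32.7, 73.2 and 70.1 CPM in MRL/lpr+MSC. Every mutant library lay above every control library, with the lowest values of both mutant groups in the libraries numbered 1. Htr2c rose 8.32-fold in MRL/lpr (log2 fold change 3.06, SE 0.54, 95% confidence interval 1.82 to 4.29, limma voom adjusted p = 0.0160). In MRL/lpr+MSC it rose 6.69-fold (2.74, SE 0.55, interval 1.498 to 3.99, limma voom adjusted p = 0.0327). With both mutant groups together the rise was 7.46-fold (2.90, SE 0.51, interval 1.73 to 4.07, limma voom adjusted p = 0.0131).

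The calls on Htr2c depended on single libraries, and its log2 fold change was positive in every setting run. The call in MRL/lpr was lost on leaving out any 1 of the 3 MRL/mpj libraries (limma voom adjusted p from 0.0613 to 0.0661), with the log2 fold change between 2.84 and 3.40 whichever of the libraries was left out. In MRL/lpr+MSC it was lost without MRL/mpj replicate 1 (limma voom adjusted p = 0.120), 2 (0.122) or 3 (0.110) and without MRL/lpr+MSC replicate 2 (0.0894) or 3 (0.101), and with both groups together without any MRL/mpj library (0.0603 to 0.0640). A test against a change of 1.5-fold did not pass in MRL/lpr (limma treat, adjusted p = 0.0980).

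Choroid plexus transcripts varied widely and were set beside Htr2c. The 14 choroid plexus genes, Ttr among them, summed to 178, 549 and 737 CPM in MRL/mpj controls, 1157, 10160 and 144 in MRL/lpr and 111, 5116 and 613 in MRL/lpr+MSC. All 14 had a positive log2 fold change in MRL/lpr (median 1.93), none passed the test, and none was at 0 in every library. Htr2c was 92.5 CPM in MRL/lpr replicate 3 and 32.7 CPM in MRL/lpr+MSC replicate 1, both above every MRL/mpj library, while the choroid plexus sum of these libraries was below every MRL/mpj library. Striatal transcripts were set beside Htr2c too. The 12 striatal genes summed to 187, 208 and 204 CPM in MRL/mpj controls, 223, 267 and 278 in MRL/lpr and 196, 260 and 359 in MRL/lpr+MSC. In each mutant group 11 of them were positive (median log2 fold changes of 0.41 and 0.48), and none passed the test. The striatal sum was above every control in 5 of the 6 mutant libraries and, like Htr2c, lowest in the libraries numbered 1 of both mutant groups. The part of choroid plexus or striatal tissue in the Htr2c values was not tested. Without the 2 mutant libraries numbered 2, where the choroid plexus sum was highest, Htr2c stayed called in MRL/lpr but not in MRL/lpr+MSC (log2 fold change 2.54, limma voom adjusted p = 0.0915). No tested gene within 5 Mb of Htr2c was called in any comparison, of 35 tested, against the shares of all genes given above. The count table gives 1 value per gene, so edited or spliced forms of Htr2c were not told apart.

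**Figure D4:**
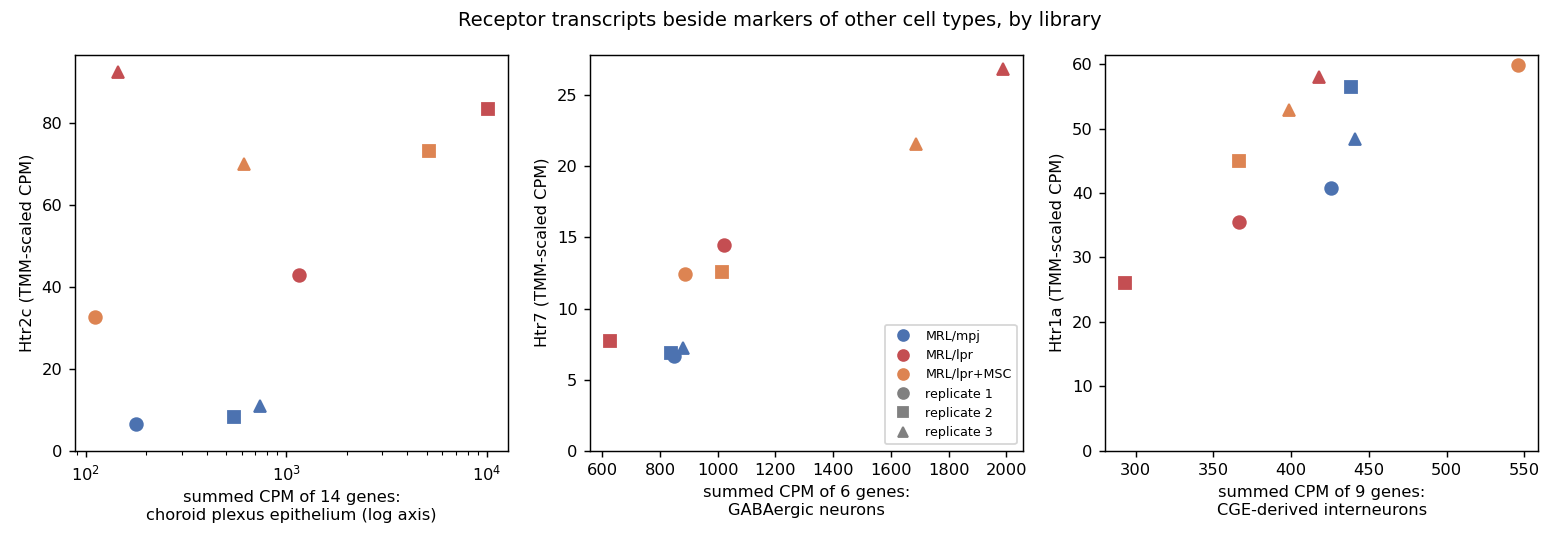
Receptor CPM against the summed CPM of a marker list in each of the 9 libraries, coloured by group, with replicate number as symbol. Htr2c is set against 14 choroid plexus genes (log axis), Htr7 against 6 GABAergic genes and Htr1a against 9 genes of interneurons from the caudal ganglionic eminence. Htr2c is 92.5 CPM in the MRL/lpr library whose choroid plexus sum is 144 CPM. It is 83.5 CPM in the MRL/lpr library whose sum is 10160 CPM.

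Htr2a, the cortical and hippocampal target of classical psychedelics, was at 9.44, 11.1 and 14.3 CPM in MRL/mpj. It was at 5.77, 7.50 and 6.09 CPM in MRL/lpr, and at 6.44, 6.78 and 6.73 CPM in MRL/lpr+MSC. All 6 mutant libraries were below all 3 controls and lay close to each other. Htr2a fell 1.78-fold in MRL/lpr (log2 fold change −0.83, SE 0.17, interval −1.22 to −0.45, limma voom adjusted p = 0.0238) and 1.74-fold with both mutant groups together (−0.80, SE 0.15, limma voom adjusted p = 0.0137). In MRL/lpr+MSC alone the log2 fold change was −0.77, SE 0.18, which did not pass (limma voom adjusted p = 0.0516). The call in MRL/lpr was lost without MRL/mpj replicate 2 (limma voom adjusted p = 0.0686) or 3 (0.0711) or MRL/lpr replicate 1 (0.0919), and the joint call without MRL/mpj replicate 2 (0.0544) or 3 (0.0509). Within 5 Mb of Htr2a 73 genes were tested, of which 3 rose and 1 fell in MRL/lpr, or 5.48%, close to the share over all genes.

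Htr4, which promotes cyclic AMP in pyramidal neurons and granule cells, was at 10.4, 17.2 and 12.1 CPM in MRL/mpj controls, 7.45, 9.27 and 8.50 in MRL/lpr and 9.19, 6.04 and 5.31 in MRL/lpr+MSC. Every mutant library was below every control. The log2 fold change was −0.65 in MRL/lpr (limma voom adjusted p = 0.1002) and −0.99 in MRL/lpr+MSC (0.0704), neither of which passed, and Htr4 fell 1.77-fold with both groups together (−0.82, SE 0.20, interval −1.28 to −0.37, limma voom adjusted p = 0.0389). That joint call was lost on leaving out MRL/mpj replicate 2 (log2 fold change −0.60, limma voom adjusted p = 0.144) or 3 (0.110), MRL/lpr replicate 1 (0.0803) or 3 (0.0536), or MRL/lpr+MSC replicate 2 (0.0875) or 3 (0.0871), and with the replicate block (0.0546). Conversely, Htr4 was called in MRL/lpr+MSC without replicate 1 of that group (log2 fold change −1.20, limma voom adjusted p = 0.0463).

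Htr7, a receptor of limbic and thalamic neurons, was at 6.65, 6.88 and 7.19 CPM in MRL/mpj. It was at 14.5, 7.72 and 26.9 CPM in MRL/lpr and at 12.4, 12.6 and 21.6 CPM in MRL/lpr+MSC. The controls were tightly grouped (SD 0.273 CPM) and the mutant libraries were all higher but scattered (SD 9.71 and 5.24 CPM). The difference passed in neither group (log2 fold change 1.07, interval −0.06 to 2.19, limma voom adjusted p = 0.188 in MRL/lpr, and 1.13, interval −0.01 to 2.27, adjusted p = 0.257 in MRL/lpr+MSC). Without MRL/lpr replicate 2 it was called in MRL/lpr (log2 fold change 1.48, limma voom adjusted p = 0.0456) and with both groups together (1.31, 0.0458).

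Htr7 was highest in the libraries numbered 3 of both mutant groups, which also had the most transcripts of GABAergic neurons. The sum of 6 GABAergic genes was 848, 839 and 879 CPM in MRL/mpj controls, 1023, 626 and 1990 in MRL/lpr and 888, 1015 and 1688 in MRL/lpr+MSC. All 6 genes had a positive log2 fold change in both groups (medians 0.42 and 0.47) and none passed the test. Gad2, which makes GABA, was between 130 and 140 CPM in MRL/mpj but 566 and 429 CPM in the mutant libraries numbered 3. In MRL/lpr replicate 2, with the lowest GABAergic sum, Htr7 was 7.72 CPM, the nearest mutant value to the controls. The mutant libraries numbered 3 also had the highest sums of 12 striatal genes (278 and 359 CPM) and 10 thalamic genes (294 and 325 CPM). Their sums of 9 genes of caudal ganglionic interneurons (418 and 399 CPM) were below every control. In MRL/lpr replicate 2 the striatal sum (267 CPM) was above every control and the thalamic sum (162 CPM) within their range. The part of these cells or of adjoining tissue in the Htr7 values was not tested. Htr7 lies 1.63 Mb from Fas on chromosome 19, at 35958734 to 36057507, and Fas at 34290666 to 34327772. Of 66 genes tested within 5 Mb of Htr7, 3 rose in MRL/lpr (Ifit1, Kif11 and Lipa) and none fell, or 4.55%, and in MRL/lpr+MSC 1 rose (Lipa), or 1.52%.

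Htr6, found on primary cilia of hippocampal neurons, was at 4.45, 4.86 and 4.96 CPM in MRL/mpj controls, 2.90, 3.58 and 3.00 in MRL/lpr and 6.44, 3.16 and 2.65 in MRL/lpr+MSC. The MRL/lpr libraries lay below the controls, whereas MRL/lpr+MSC replicate 1 was the highest of all 9. The log2 fold changes of −0.60 and −0.35 did not pass (limma voom adjusted p = 0.202 and 0.535). Without MRL/lpr+MSC replicate 1 the difference with both groups together was called (log2 fold change −0.65, limma voom adjusted p = 0.0243).

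Of the 10 members, the Gi/o-coupled Htr1a, Htr1b, Htr1f and Htr5a were not called in any of the comparisons. Htr1a was at 40.8, 56.5 and 48.3 CPM in MRL/mpj controls, 35.5, 26.0 and 58.0 in MRL/lpr and 59.8, 45.0 and 52.8 in MRL/lpr+MSC. The groups overlapped, and MRL/lpr held both the lowest value and one of the highest. Its log2 fold change was −0.36 in MRL/lpr (interval −0.96 to 0.24, limma voom adjusted p = 0.394) and 0.11 in MRL/lpr+MSC (interval −0.48 to 0.70, adjusted p = 0.849). Htr1a was lowest in MRL/lpr replicate 2, where the 9 genes of interneurons from the caudal ganglionic eminence (293 CPM) were also at their lowest. The 6 CA1 genes (286 CPM) were lowest there too, and the 14 choroid plexus genes (10160 CPM) highest. Htr1a was highest in MRL/lpr+MSC replicate 1, where the interneuron sum was highest (546 CPM). The CA1 sum of that library was 534 CPM, below every control. In MRL/lpr replicate 3, where Htr1a was 58.0 CPM, the CA1 sum was 540 CPM, also below every control. The caudal interneuron sum was below every control too, both there (418 CPM) and in MRL/lpr+MSC replicate 3 (399 CPM, Htr1a 52.8 CPM). The 5 genes of interneurons from the medial ganglionic eminence were lowest in MRL/lpr replicate 2 (149.5 CPM) but highest in MRL/mpj replicate 3 (300 CPM). The part of these cells in the Htr1a values was not tested.

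Htr1b, a receptor on axon terminals, was at 7.99, 11.4 and 9.26 CPM in MRL/mpj controls, 9.76, 3.88 and 19.1 in MRL/lpr and 5.50, 10.3 and 11.95 in MRL/lpr+MSC. The 3 MRL/lpr libraries held both the lowest and the highest of the 9 values, and the highest, replicate 3, was the library with the highest GABAergic sum. The log2 fold change was −0.07 in MRL/lpr and −0.09 in MRL/lpr+MSC (limma voom adjusted p = 0.941 and 0.946), with intervals of −1.26 to 1.12 and −1.33 to 1.15 that allow a change of more than 1.5-fold in both directions. Of the exon bases of Htr1b 852, or 18.04%, are shared with D430036J16Rik on the opposite strand, and the sources do not say if reads were counted by strand.

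Htr1f, a target of migraine drugs, was low throughout, at 2.65, 2.84 and 3.76 CPM in MRL/mpj controls, 2.49, 1.25 and 2.62 in MRL/lpr and 2.13, 2.56 and 2.43 in MRL/lpr+MSC. All mutant libraries were below all controls by a small margin. Its log2 fold changes of −0.57 and −0.35 did not pass (limma voom adjusted p = 0.220 and 0.542). Htr5a was at 13.8, 9.76 and 12.8 CPM in MRL/mpj controls, 10.6, 10.5 and 13.7 in MRL/lpr and 18.1, 11.9 and 13.4 in MRL/lpr+MSC. Its groups overlapped. Its log2 fold change in MRL/lpr was −0.05 with an interval of −0.50 to 0.40, which leaves out a change of 1.5-fold, and 0.25 in MRL/lpr+MSC (interval −0.19 to 0.70).

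Htr3a, the channel subunit that marks a class of interneurons, was at 3.40, 2.28 and 2.62 CPM in MRL/mpj controls, 1.33, 1.81 and 0.973 in MRL/lpr and 5.81, 2.18 and 1.02 in MRL/lpr+MSC. MRL/lpr lay below MRL/mpj without overlap, and MRL/lpr+MSC overlapped both other groups. The log2 fold change was −1.02 in MRL/lpr (interval −2.34 to 0.29, limma voom adjusted p = 0.270) and −0.25 in MRL/lpr+MSC (adjusted p = 0.832). As for Htr6, the highest value was in MRL/lpr+MSC replicate 1, which also had the lowest sum of 10 thalamic genes (85.0 CPM against 143 to 325 in the other libraries). The same library had the highest sums of 9 genes of caudal ganglionic interneurons (546 CPM) and of 5 CA3 genes (556 CPM). Its sum of 7 dentate granule genes (372 CPM) was the lowest. The part of adjoining tissue or of these hippocampal cells in the values of Htr3a and Htr6 was not tested.

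The last comparison asked whether stem cell treatment changed receptor transcripts in mutant mice. Of the 10 receptors none was called, and their ranges overlapped in all 10, compared with 10% of all genes whose ranges did not overlap. Over all genes 0% were called by limma voom, with 944 of 17113 at an unadjusted p under 0.05, and 0 by limma-trend and by limma voom with library quality weights. Htr2c had a mean of 72.9 ± 26.4 CPM in MRL/lpr and 58.7 ± 22.6 CPM in MRL/lpr+MSC (SD, n = 3). Its log2 fold change was −0.32 with an interval of −1.14 to 0.51 (limma voom adjusted p = 0.865). For Htr2a it was 0.06 (interval −0.37 to 0.49) and for Htr7 0.06 (interval −0.86 to 0.98). The largest differences were those of Htr3a (0.77, interval −0.57 to 2.11) and Htr1a (0.47, interval −0.13 to 1.06), both with a limma voom adjusted p of 0.838. Of these intervals only that of Htr2a leaves out a change of 1.5-fold in both directions. The median log2 fold change of the 10 was 0.14, against −0.01 over all genes.

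Of the other 4 serotonin receptor genes, Htr2b and Htr3b did not pass the filter on low counts. Htr5b, a relative of Htr5a, was at 4.40, 8.39 and 5.83 CPM in MRL/mpj controls, 2.83, 1.60 and 3.05 in MRL/lpr and 3.27, 3.16 and 2.08 in MRL/lpr+MSC. All mutant libraries were below all controls. Htr5b fell in MRL/lpr (log2 fold change −1.32, SE 0.33, limma voom adjusted p = 0.0433), and leaving out any 1 of the 6 libraries of that comparison ended the call (adjusted p from 0.0514 to 0.121), as did fitting only the groups compared (0.0586) and the replicate block (0.0704). Htr1d, at most 1.31 CPM in any library, was not called (log2 fold change 1.51, limma voom adjusted p = 0.185).

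Genes that make, move and break down serotonin were not called in any of the comparisons, among them 7 synthesis genes, 5 breakdown genes and the 5 of 6 transport genes that passed the filter. The markers of raphe neurons, whose cell bodies lie outside the hippocampus, were low. Tph2, the neuronal enzyme of serotonin synthesis, was at 0.634 to 1.399 CPM, the transporter Slc6a4 at 0 to 0.885 CPM, and Fev, a transcription factor of serotonin neurons, at 3 counts or fewer in every library. Slc18a2, which loads monoamines into vesicles, had a log2 fold change of 0.92 in MRL/lpr (limma voom adjusted p = 0.142), and the breakdown enzymes Maoa and Maob of −0.06 (0.634) and 0.54 (0.0650).

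Genes downstream of the receptors are given from lists of their signalling. Of 12 Gi/o genes 1 fell, Kcnj3, a subunit of the inward rectifier channel that Htr1a opens (log2 fold change −0.60, limma voom adjusted p = 0.00966). Of 13 Gq/11 genes 2 fell and none rose. These were the G protein subunit Gna14 (−2.30, limma voom adjusted p = 0.0331) and the protein kinase C gene Prkcb (−0.69, 0.0203). Of 21 Gs genes 1 rose, the adenylyl cyclase Adcy7 (1.14, limma voom adjusted p = 0.0242), and 2 fell, the cyclase Adcy9 (−0.77, 0.0353) and the phosphodiesterase Pde4d (−0.64, 0.00559). The counts of 1 of 12, 2 of 13 and 3 of 21 stand beside 5.58% of all genes.

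Of 15 genes for receptor partners and trafficking 1 rose and none fell in MRL/lpr, beside 5.58% of all genes called. It was S100a10 (p11), which binds Htr1b and Htr4 and brings them to the cell surface. S100a10 was at 6.05, 6.11 and 6.59 CPM in MRL/mpj controls, 15.6, 11.6 and 14.3 in MRL/lpr and 11.7, 10.6 and 12.2 in MRL/lpr+MSC. Every mutant library was above every control. S100a10 rose 2.21-fold in MRL/lpr (log2 fold change 1.15, SE 0.15, limma voom adjusted p = 0.00442) and 1.84-fold in MRL/lpr+MSC (0.88, SE 0.16, 0.0219). It was the only gene of these lists called in MRL/lpr+MSC, where Kcnj3 (log2 fold change −0.58, limma voom adjusted p = 0.0136) and Pde4d (−0.51, 0.0198) were lower by no more than 1.5-fold. The call of S100a10 there was lost without MRL/mpj replicate 1, 2 or 3 or without MRL/lpr+MSC replicate 2 or 3 (limma voom adjusted p from 0.0536 to 0.0995). In MRL/lpr no single library ended the calls of S100a10 or Pde4d. Those of Kcnj3 (without MRL/mpj replicate 2 or MRL/lpr replicate 1 or 3), Gna14 (MRL/mpj 1 or 2, MRL/lpr 1 or 3), Prkcb (any MRL/mpj, MRL/lpr 1 or 2), Adcy7 (any MRL/mpj, MRL/lpr 1) and Adcy9 (any MRL/mpj, MRL/lpr 1 or 3) ended without the library named. Adjusted p without one library reached 0.0410 for Kcnj3, which then changed by less than 1.5-fold, 0.0817 for Gna14, 0.0963 for Prkcb, 0.0990 for Adcy7 and 0.123 for Adcy9. Fitting only the groups compared also ended the call of Gna14 (limma voom adjusted p = 0.0594).

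**Figure D5:**
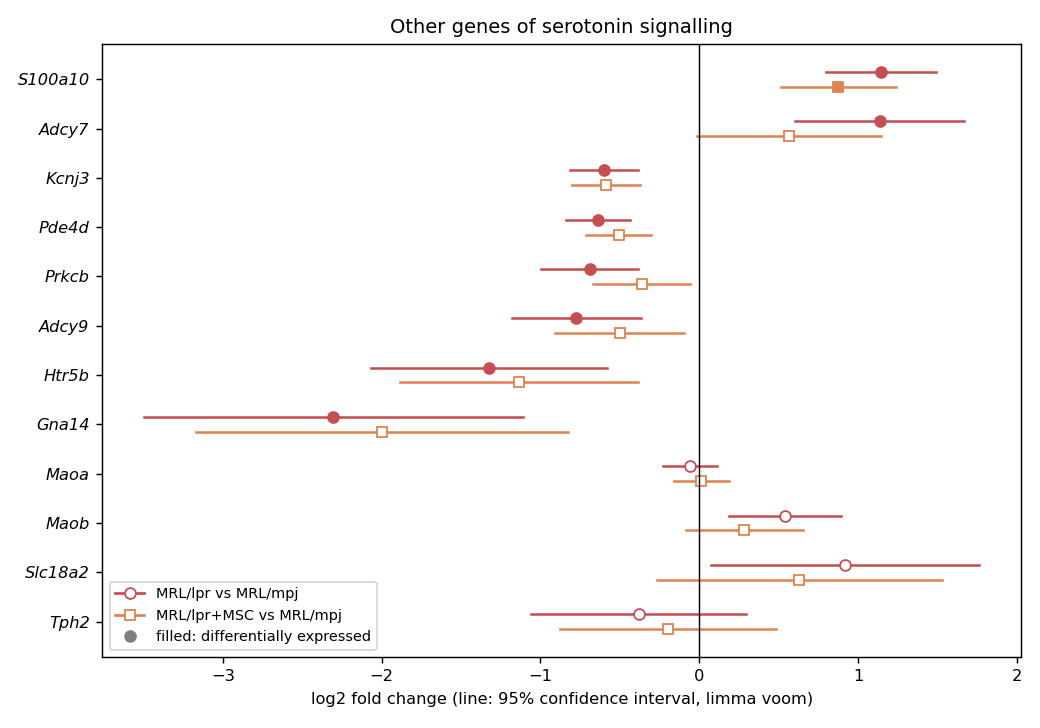
log2 fold change with 95% confidence interval from limma voom for genes of serotonin synthesis, transport, breakdown and signalling, in MRL/lpr and in MRL/lpr+MSC against MRL/mpj. Filled symbols mark differentially expressed genes. S100a10 is filled in both comparisons, at 1.15 and 0.88.

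Markers of other cells also differed in MRL/lpr. Of 6 CA1 genes 3 fell (Fibcd1, Mpped1 and Pou3f1, median log2 fold change of the list −1.17) and of 9 genes of caudal ganglionic interneurons 1 rose (Sncg) and 1 fell (Adarb2). The only other neural or vascular markers called were Gpr151 of the habenula and Pvalb of interneurons, which fell, and Cldn5 of endothelium, which rose. The CA1 sum was 738, 896 and 853 CPM in MRL/mpj controls, 545, 286 and 540 in MRL/lpr and 534, 701 and 539 in MRL/lpr+MSC, without overlap between controls and mutants. Htr1f, Htr2a, Htr4 and Htr5b were also lower in all 6 mutant libraries. Over the 9 libraries, r with the CA1 sum (log2 values) was 0.912 for Htr1f and 0.884 for Htr5b. It was 0.586 for Htr2a and 0.403 for Htr4. As these receptors and the CA1 sum were all lower in every mutant library, r carries the difference between groups. No r without group means was computed for marker sums. Larger in size were the r of Htr2a with the endothelial sum (−0.807) and of Htr4 with the striatal sum (−0.693). The 4 lymphocyte genes summed to 7.70, 4.66 and 2.71 CPM in MRL/lpr and to at most 1.02 CPM in the other 6 libraries, and 2 of the 3 tested rose in MRL/lpr (Cd3e and Cd3d). No single library ended the calls of Fibcd1, Adarb2 or Pvalb, whereas any MRL/mpj library ended those of Mpped1, Pou3f1, Sncg, Cd3e and Cd3d (MRL/lpr replicate 1 also those of Pou3f1, Sncg and Cd3e, and MRL/lpr replicates 2 and 3 that of Sncg), MRL/mpj replicates 1 and 3 and MRL/lpr replicate 1 that of Gpr151, and MRL/mpj replicate 3 that of Cldn5. The limma voom adjusted p then lay between 0.0525 and 0.150. The replicate block also ended the call of Sncg (0.0656). The part of these cells in the receptor values was not tested.

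The genes whose log2 CPM followed each receptor most closely over the 9 libraries were listed as a description, since libraries of a group share their genotype. For Htr2c they were Ergic3, L3mbtl3 and Slc25a39 (r = 0.986, 0.978 and 0.976), with r falling to 0.899, 0.858 and 0.806 once group means were removed. For Htr2a they were Mrpl27, Lin7b and Gdi2 (r = 0.981, 0.971 and 0.957; 0.882, 0.859 and 0.755 without group means). For Htr7 they were Grin2d, Resp18 and Tmem255a (r = 0.995, 0.993 and 0.986), and r was as high within groups (0.994, 0.993 and 0.991). Htr1a was followed most closely by Lgr5 (0.974), Htr1b by Ankrd63 (0.960), Htr1f by Homer2 (0.922), Htr3a by Ccni (0.986), Htr4 by Slc35c1 (0.969), Htr5a by Tmem121 (0.964) and Htr6 by Tmem42 (0.991).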

How the data were processed

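RNA-seq of hippocampus was measured in 9 libraries, 3 per group, with groups and replicate numbers taken from the labels. The authors selected poly-A mRNA, made libraries with a NEBNext Ultra kit, aligned reads to mm10 with STAR and counted them per gene with HTSeq, and the submitters' processing notes name TopHat2 and GRCm38. The deposited matrix holds raw counts per gene, without normalization, and no row lacks a gene. The FPKM values deposited per sample were made by the authors from gene length and counts. They were used as deposited for levels compared between genes, and to check that each count column belongs to its sample. Symbols matched 47224 of 47643 identifiers.

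Counts were tested with limma voom (R 4.3.3 with limma 3.58.1 and statmod 1.5.0) in 1 fit of all 9 libraries with robust empirical Bayes, TMM factors (30% of log ratios and 5% of levels trimmed) and Benjamini-Hochberg adjustment over 17113 genes. Genes were kept with 15 counts in all and with 3 libraries at a CPM worth 10 counts at the median library size. The fit was first tested on simulated data. The main test laid out at the start was a quasi-likelihood one. The separator used in the matrix meant that its unit could not be entered as counts, so that test was left out and voom, laid out beside it, was used instead. Intervals from counting (3 counts as the limit) cover counting error only. The genes named are the 10 members, the called genes of the serotonin lists, the markers called in MRL/lpr, and the 3 genes most like each member by r of log2 CPM. Tph2, Slc6a4, Fev, Slc18a2, Maoa, Maob, Htr1d, Gad2 and Fas, the other genes near Htr7, and the library values set beside a receptor were named for their role or after their values were seen. Members and lists were chosen with earlier results of these data known. Of the genes first put on the lists, 2 are not reported here. Other scalings, filters, a replicate block, a test against 1.5-fold and leaving out each library were planned. limma-trend, library quality weights and leaving out both mutant libraries numbered 2 or 3 were added after seeing the data. No 2 libraries of a group agreed within sampling noise (chi-square per gene at least 10.1). Promoter windows are from RefSeq on GRCm38.p6, and 8 of 10 members had one that was used.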

Additional observations from a re-analysis of the deposited data

How the results depend on the processing

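Another scaling (median-of-ratios) and no filter or a stricter one on low counts left the number of receptors called as given in all 4 comparisons, as did fitting only the groups compared in the 3 pairwise ones. That last fit ended the calls of Htr5b (limma voom adjusted p = 0.0586) and Gna14 (0.0594) in MRL/lpr. The test against a 1.5-fold change called 106, 96 and 136 genes in MRL/lpr, in MRL/lpr+MSC and in both groups against MRL/mpj, and 0 receptors in each. Library quality weights called 2030, 1051 and 1938 genes, and with them 3 receptors were called in MRL/lpr+MSC (Htr2c, Htr2a and Htr4) and 5 with both groups together (Htr6 and Htr7 added). limma-trend called 2 receptors in MRL/lpr+MSC (Htr2a added). Without both mutant libraries numbered 2, 287 genes and 0 receptors were called in MRL/lpr+MSC, and without those numbered 3, 202 genes and 0 receptors there and 1 receptor (Htr2c) in MRL/lpr. Fewer libraries enter these fits. The DESeq2 and edgeR tests were not run.

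Leaving out 1 library at a time gave 282 to 1172 genes and 0 to 3 receptors in MRL/lpr, 201 to 491 genes and 0 to 2 receptors in MRL/lpr+MSC, 348 to 1243 genes and 0 to 4 receptors with both groups together, and 0 to 48 genes and 0 receptors in MRL/lpr+MSC against MRL/lpr, where the 48 came without MRL/lpr replicate 3. Against MRL/mpj the sign of the log2 fold change turned in MRL/lpr for Htr1b (−0.572 to 0.483) and Htr5a (−0.221 to 0.053), in MRL/lpr+MSC for Htr1a (−0.001 to 0.236), Htr1b (−0.319 to 0.225) and Htr3a (−0.856 to 0.364), and with both groups for Htr1a (−0.273 to 0.006), Htr1b (−0.331 to 0.196) and Htr5a (−0.066 to 0.209). Between the mutant groups it turned for Htr1b (−0.574 to 0.480), Htr1f (−0.099 to 0.389), Htr2a (−0.021 to 0.170), Htr2c (−0.662 to 0.062), Htr6 (−0.110 to 0.504) and Htr7 (−0.354 to 0.479). None of these was called.

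Other settings turned signs only of differences that were not called. With quality weights Htr1b became 0.130 in MRL/lpr+MSC, 0.063 with both groups and 0.134 between the mutant groups, where Htr2c became 0.161. Without the mutant libraries numbered 2, Htr1b became 0.483 and Htr5a 0.003 in MRL/lpr, Htr1a 0.059 and Htr1b 0.145 with both groups, and Htr1f −0.153 and Htr7 −0.216 between the mutant groups. Without those numbered 3, Htr3a became 0.364 in MRL/lpr+MSC and Htr1b 0.253 between the mutant groups. The cause was not tested.

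Libraries with the same replicate number did not deviate together throughout (r from −0.214 to 0.348), so the numbers were not taken as pairs. Between the mutant groups r was −0.214, 0.232 and 0.348 for the libraries numbered 1, 2 and 3. For mutant libraries with different numbers it lay between −0.419 and 0.197. With the replicate block 933, 391, 0 and 848 genes were called in MRL/lpr, in MRL/lpr+MSC, between the mutant groups and with both groups, and 2, 1, 0 and 2 receptors, the joint call of Htr4 being lost. It also ended the calls of Htr5b in MRL/lpr (limma voom adjusted p = 0.0704) and with both groups (0.0577), and of Sncg in MRL/lpr (0.0656). Under the replicate block Htr1b became 0.076 in MRL/lpr and 0.008 with both groups, and Htr7 −0.020 between the mutant groups.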
